A study of Mus musculus with 15 samples.

Results

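Mlana, Gpnmb and 8 further genes of pigment cells and of the MiT/TFE transcription factor family were followed in mouse primary lung fibroblasts with and without the DNA damage kinase Atm. The 10 genes, of 48440 in the count table, were the melanosome proteins Mlana, Gpnmb and Pmel, the pigment enzymes Tyr, Tyrp1 and Dct, and the factors Mitf, Tfeb, Tfe3 and Tfec. The set was picked because Mlana and Gpnmb were higher in Atm-/- cells, so their genotype differences are given as a description with no test, and so are their passage changes in Atm-/- cells, which rest on the same libraries. The other members were tested throughout, and these 2 genes in the comparisons within Atm+/+ cells. The Atm+/+ libraries were the other side of the choice, so those tests of the 2 genes are not independent of it. The cells came from C57BL/6 mice as 3 strains of each genotype, were cultured in 3% oxygen and were sequenced as total RNA in 15 libraries, 3 in each of 5 groups. The groups were Atm-/- passage 8, Atm+/+ passage 8, Atm-/- passage 2, irradiated Atm+/+ passage 2 (10 Gy of X-rays, harvested 10 days later) and Atm+/+ passage 2. The labels name no other allele or agent, and which part of Atm is altered is not given in the sources used here. Of the 10 genes, 7 had enough reads to be tested, and Tyr, Tyrp1 and Dct did not.

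Mlana, also called MART-1, is a small membrane protein of early melanosomes, the pigment organelles that melanocytes build from endosomes. Pmel forms the fibrils inside them, and Tyr, Tyrp1 and Dct make melanin there. Gpnmb is a glycoprotein related to Pmel that is also made by macrophages, osteoclasts and other cells with loaded lysosomes. Mitf is the master regulator of the melanocyte lineage, and Tfeb and Tfe3 switch on lysosomal and autophagy genes when the nutrient-sensing kinase complex mTORC1 is low. Tfec, the least studied member of the family, is best known from macrophages and osteoclasts. The 4 factors bind as dimers to E-box sequences with the core CACGTG or CATGTG.

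The 4 factors share their DNA-binding region, which bears on whether reads can be told apart between them. The 60 coding bases below are the stretch that the coding sequences have in common, from the annotation of mm10 (GENCODE vM21, GRCm38, coding strand), with the 46 bases that are identical in all 4 genes in capitals.
Mitf: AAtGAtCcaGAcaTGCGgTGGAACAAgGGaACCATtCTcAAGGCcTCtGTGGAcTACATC
Tfeb: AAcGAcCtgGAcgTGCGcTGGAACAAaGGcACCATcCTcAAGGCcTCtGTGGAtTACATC
Tfe3: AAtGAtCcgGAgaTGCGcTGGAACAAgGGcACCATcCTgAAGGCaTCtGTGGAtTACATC
Tfec: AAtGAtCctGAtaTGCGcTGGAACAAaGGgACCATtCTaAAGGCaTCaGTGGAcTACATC
Over this stretch Tfeb was identical to Mitf at 83.3% of bases, and Tfe3 and Tfec each at 86.7%. The longest run shared letter for letter between transcripts of any pair of factors was 29 bases, between Tfeb and Tfe3. Mitf shared at most 20 bases with any other factor, and Gpnmb and Pmel shared 16.

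Upstream sequence was read from RefSeq (GRCm38.p6), which held windows for 8 of the 10 genes, with Mlana and Pmel not among them. In the 250 bases before each start site, CACGTG was in none of the 8 genes, against 6.02% of 32851 promoters of the same length. CATGTG, read on either strand, was in 3 of them, the pigment enzymes Tyr, Tyrp1 and Dct, and in 12.3% of all promoters. These sites are shown in capitals with their surroundings, read on the strand of the gene, because the 3 genes that carry them are the 3 that had at most 4 reads over all libraries.
Tyr chr7:87493516-87493545, minus strand: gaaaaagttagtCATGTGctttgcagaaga
Tyrp1 chr4:80834155-80834184, plus strand: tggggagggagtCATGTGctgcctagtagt
Dct chr14:118052379-118052408, minus strand: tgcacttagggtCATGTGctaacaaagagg
Dct chr14:118052461-118052490, minus strand, other orientation: gcttggctgggaCACATGagcccaataaag
In Tyr and Tyrp1 the sites began 21 and 46 bases before the start site, and in Dct 150 and 232 bases before it. The window of Gpnmb, whose level did differ between the groups, held neither core and is shown whole (chr6:49036268-49036517, plus strand).
Gpnmb: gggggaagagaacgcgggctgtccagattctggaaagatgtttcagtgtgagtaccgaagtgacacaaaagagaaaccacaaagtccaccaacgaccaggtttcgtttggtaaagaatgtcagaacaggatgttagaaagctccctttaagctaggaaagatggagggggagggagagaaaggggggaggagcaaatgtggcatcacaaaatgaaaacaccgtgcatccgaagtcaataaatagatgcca
For comparison, the upstream window of Mcoln1, the lysosomal calcium channel whose pattern over the libraries was most like that of Gpnmb, held CACGTG at 71 and 45 bases before the start site. Mcoln1 belongs to the list of lysosomal targets of Tfeb and Tfe3 used below, and no other gene of like pattern had its window read.
Mcoln1 chr8:3500436-3500465, plus strand: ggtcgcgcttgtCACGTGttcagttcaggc
Mcoln1 chr8:3500462-3500491, plus strand: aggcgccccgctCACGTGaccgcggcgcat
A match describes letters only and says nothing of binding.

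The libraries held 13.6 to 39.2 M assigned reads (M, a count in units of 1e6), and 2 of them stood apart. At equal depth, Atm-/- passage 8 replicate 3 and Atm+/+ passage 2 replicate 3 had reads in 15037 and 17226 genes, against 20101 to 21978 in the other 13, and relative to their group mates their long transcripts lay below their short ones, with a difference of -0.350 and -0.358 on the log2 scale, against -0.147 to 0.432 in the others. Values from the other 13 are given beside those from all 15 for the members and the lysosomal and nutrient lists where a direction, a call or a count moved. Atm itself had 0.873 to 2.37 and 1.42 to 2.00 normalised counts scaled to a common library size (CPM) in Atm-/- and Atm+/+ cells at passage 8, and 0.966 to 1.91 and 0.877 to 3.10 CPM at passage 2, so its count overlapped between genotypes and does not check the labels. The 12 fibroblast markers had reads in all 15 libraries. Their summed level was 12434 to 17510 CPM in Atm-/- cells at passage 8, below every library of the 4 other groups, which held 27004 to 43611 CPM. The 21 macrophage markers summed to 44.8 to 62.2 CPM without Atm and 69.3 to 108.7 CPM with it at passage 8. At passage 2 the sums were 1106 to 1781 CPM without Atm, 1500 to 2689 CPM after irradiation and 2455 to 4248 CPM in unirradiated cells with Atm. The melanocyte markers, 13 genes that include Pmel, Tyr, Tyrp1 and Dct, stayed between 3.901 and 22.9 CPM in sum.

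**Figure D1:**
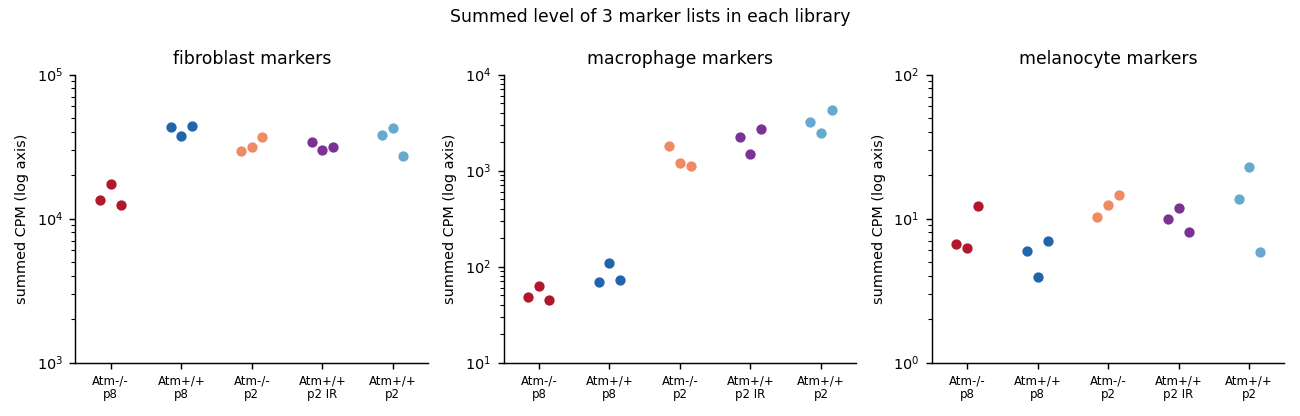
Summed CPM (log axis) of the fibroblast, macrophage and melanocyte marker lists in each library, by group (p, passage; IR, irradiated), 3 points a group. Macrophage markers were at or below 108.7 CPM in all passage 8 libraries and at or above 1106 CPM in all passage 2 libraries, while melanocyte markers stayed at or below 22.9 CPM everywhere.

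Mlana and Gpnmb, the genes that chose the set, were higher without Atm at both passages. Mlana (chr19:29697824-29708634, plus strand) had 36.5, 19.4 and 33.5 CPM in Atm-/- cells at passage 8, against 2.18, 4.24 and 2.50 CPM in Atm+/+ cells. At passage 2 it had 5.82, 3.00 and 2.54 CPM in Atm-/- cells, against 0.496, 0.356 and 0 CPM in Atm+/+ cells, where 16, 13 and 0 reads lay behind the values. The genotypes did not overlap at either passage, as for 16.8% of all genes in this direction at passage 8 and 13.7% at passage 2. The fitted difference of Mlana was 3.33 on the log2 scale at passage 8 (SE 0.57, 10.0-fold) and 3.61 at passage 2 (SE 0.63, 12.2-fold), and in the 13 libraries 3.26 and 3.16. Gpnmb (chr6:49036546-49070929, plus strand) had 345, 232 and 152 CPM in Atm-/- cells at passage 8, against 60.8, 64.2 and 74.7 CPM in Atm+/+ cells. At passage 2 the values were 167, 155 and 109 CPM in Atm-/- cells, against 83.8, 91.5 and 76.4 CPM in Atm+/+ cells. Again no Atm-/- library fell into the range of its Atm+/+ group. The difference of Gpnmb was 1.87 at passage 8 (SE 0.28, 3.66-fold) and 0.77 at passage 2 (SE 0.27, 1.71-fold), and 2.14 and 0.73 in the 13 libraries. Over all 18167 genes tested, 9.32% were called different between the genotypes at passage 8 (5.03% higher and 4.29% lower) and 0.969% at passage 2 (0.628% higher and 0.341% lower). In the 13 libraries the shares were 25% and 5.35%. Fewer cells of a type and less RNA per cell cannot be told apart in such bulk samples.

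The 2 genes differed in level as well as in pattern. Per length of transcript, in the deposited TPM (transcript abundance scaled by length and library), Gpnmb averaged 92.9 ± 49.2 TPM and Mlana 63.5 ± 21.0 TPM in Atm-/- cells at passage 8 (SD, n = 3 each). In Atm+/+ cells at passage 8, Gpnmb averaged 30.2 ± 5.12 TPM and Mlana 7.93 ± 2.74 TPM. In Atm+/+ cells at passage 2 Gpnmb was at 33.4 ± 10.1 TPM and Mlana at 0.720 ± 0.627 TPM. The order of the groups by mean CPM also differed. For Mlana it ran from Atm-/- passage 8 over Atm-/- passage 2, Atm+/+ passage 8 and irradiated cells down to Atm+/+ passage 2, and only the libraries of Atm-/- passage 2 and Atm+/+ passage 8 overlapped. For Gpnmb it ran from Atm-/- passage 8 over irradiated cells, Atm-/- passage 2 and Atm+/+ passage 2 down to Atm+/+ passage 8, and the first 3 of these groups overlapped with their neighbours. Over the 15 libraries, which share these groups, the log2 CPM of Mlana and Gpnmb had a Pearson correlation of 0.55.

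**Figure D2:**
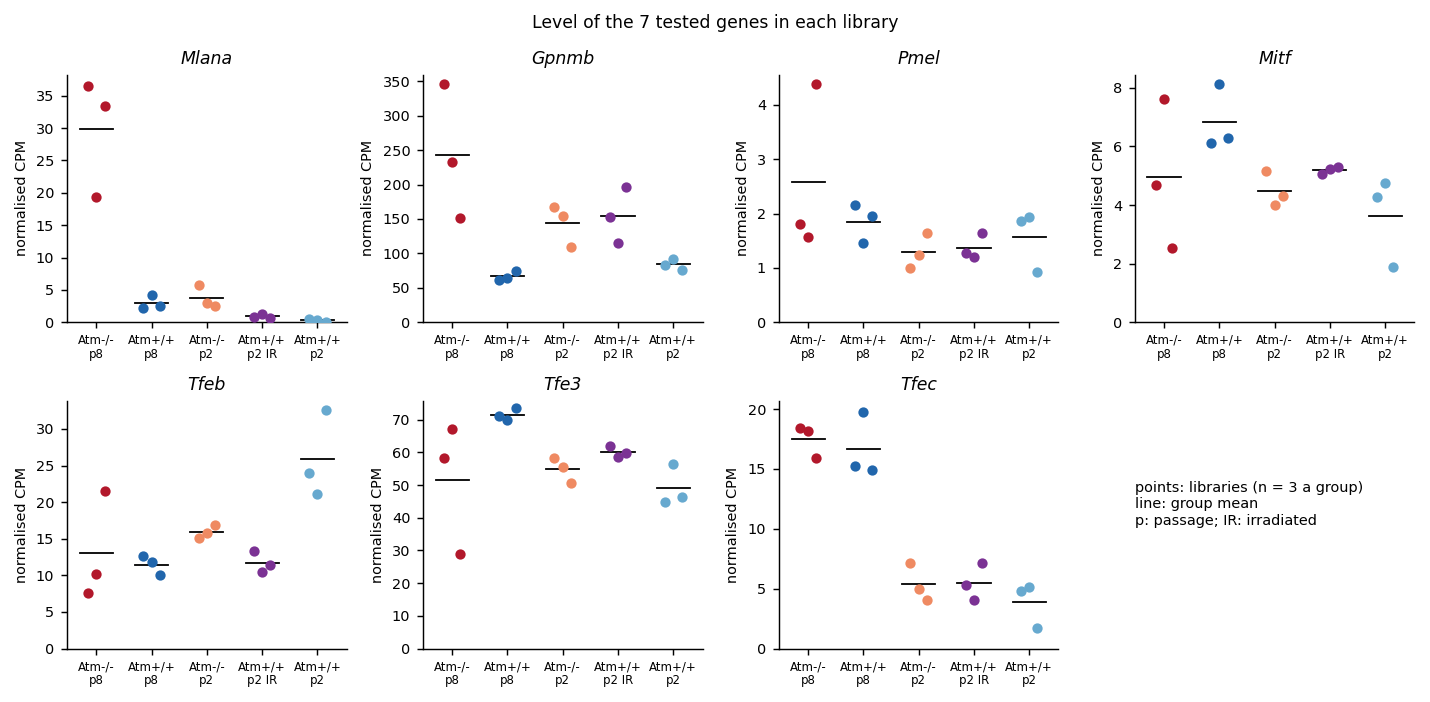
Normalised CPM of the 7 tested genes in each library, from 0 on a linear axis, with a line at the mean of the 3 libraries of each group (p, passage; IR, irradiated). Mlana lay between 19.4 and 36.5 CPM in Atm-/- passage 8 cells and at or under 5.82 CPM elsewhere, Tfec lay above 14.9 CPM in both passage 8 groups, and Tfeb was highest in the 3 Atm+/+ passage 2 libraries.

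Serial culture was compared within each genotype, passage 8 against passage 2. Mlana rose in Atm+/+ cells, by 3.26 on the log2 scale (SE 0.63, edgeR with Benjamini-Hochberg adjustment, adjusted p = 0.00239), or 9.60-fold, and the passages did not overlap, as for 24.9% of all genes in this direction. In the 13 libraries this rise was 2.82 (SE 0.55, edgeR with Benjamini-Hochberg adjustment, adjusted p = 0.00150). In Atm-/- cells the difference was 2.98 (SE 0.56, 7.87-fold), and 2.91 in the 13 libraries. It is given without a test because the gene was chosen for its level in these cells. The Atm+/+ libraries were the other side of that choice, so the test within Atm+/+ cells is not independent of it. Gpnmb did not rise with Mlana in Atm+/+ cells, where its change of -0.33 did not pass (SE 0.27, edgeR with Benjamini-Hochberg adjustment, adjusted p = 0.374). In Atm-/- cells the difference of Gpnmb was 0.76 (SE 0.27), and 1.04 in the 13 libraries (SE 0.23). Atm-/- passage 8 replicate 3 had the lowest Gpnmb of its group.

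Irradiation of Atm+/+ cells, the study's model of premature senescence, was set against the same unirradiated passage 2 libraries that serve the passage and genotype comparisons. Those libraries also took part in choosing Mlana and Gpnmb, so the tests of these genes here are not independent of the choice. Gpnmb had 153, 115 and 196 CPM in irradiated cells, against 83.8, 91.5 and 76.4 CPM in unirradiated cells. All irradiated libraries were higher, as for 27.3% of all genes, and the rise of 0.88 (SE 0.27, 1.84-fold) passed (edgeR with Benjamini-Hochberg adjustment, adjusted p = 0.0275). It did not pass without Atm+/+ passage 2 replicates 1 or 3 or irradiated replicates 1 or 3, where it was 0.73 to 0.96. Mlana had 0.749, 1.25 and 0.699 CPM in irradiated cells, against 0.496, 0.356 and 0 CPM. The groups did not overlap, as for the same 27.3% of all genes, but the difference of 1.55 rested on at most 53 reads a library and did not pass (SE 0.63, edgeR with Benjamini-Hochberg adjustment, adjusted p = 0.0837). On log2(TPM + 1) in limma it was 1.19 (adjusted p = 0.0280). In that fit the median of all genes was 0.32 and 23.5% of all genes were called higher, against 11% in the main fit. Markers of macrophages, cells known to make Gpnmb, had sums that overlapped between irradiated and unirradiated cells, and 3 of 21 fell, 14.3% against 16.5% of all genes. They were lower in sum in Atm-/- than in Atm+/+ cells at passage 2, with none of 21 passing and 15 at an unadjusted p under 0.05 in edgeR. Their part in the Gpnmb values was not tested.

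The other pigment cell genes did not move with Mlana and Gpnmb. Pmel (chr10:128704195-128720238, plus strand) had 1.80, 1.57 and 4.38 CPM in Atm-/- and 2.15, 1.46 and 1.95 CPM in Atm+/+ cells at passage 8. At passage 2 it had 1.00, 1.25 and 1.64 CPM in Atm-/- cells, 1.26, 1.204 and 1.65 CPM in irradiated cells and 1.86, 1.95 and 0.919 CPM in Atm+/+ cells. The groups overlapped in each comparison, and none passed. The gene overlaps Cdk2 and Dgka on the opposite strand, and since it is not given in the sources used here whether reads were counted by strand, its low counts are uncertain. Tyr, the rate-limiting enzyme of melanin synthesis, had 1 read in all 15 libraries together, and Tyrp1 and Dct had 4 each. Every one of these reads lay in passage 2 cells. At 0 reads, a library allows a level of up to 0.0708 to 0.263 CPM (3 reads, counting error only), so in the Atm-/- passage 8 libraries, where Mlana stood at 19.4 CPM or more, the 3 enzymes were below what this depth could detect.

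Other melanocyte markers had single-library values of 0 to 18.7 CPM, the highest in Kit. Of the 13 markers, 4 were at 0 in at least 8 libraries, and 3 had a median over 1 CPM (Kit, Pax3 and Pmel). Oca2, a melanosomal transporter, had 5 reads in all. Sox10, a neural crest factor upstream of Mitf, had 0.175, 0.128 and 0 CPM in Atm-/- passage 8 and no reads in Atm+/+ passage 8 cells, which rests on a handful of reads and is given without a fold. Kit, the receptor for stem cell factor, fell with passage in both genotypes. It had 0.175, 0.161 and 0 CPM at passage 8 against 5.21, 8.49 and 9.14 CPM at passage 2 in Atm-/- cells. In Atm+/+ cells it had 0.144, 0.0679 and 0.192 CPM at passage 8 against 8.53, 18.7 and 2.18 CPM at passage 2. The passages did not overlap in either, as for 22.5% of all genes in this direction in Atm-/- and 22.6% in Atm+/+ cells, and both declines passed (edgeR with Benjamini-Hochberg adjustment, adjusted p = 0.000514 and 0.000175).

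Of the 26 genes for making and moving melanosomes, many of which serve lysosome-related organelles in other cells, 22 could be tested. Without Atm at passage 8, 3 of them were higher and 1 was lower, a share of 18.2% against 9.32% of all genes, with a median of 0.27 against -0.08 for all genes. None of the 22 passed at passage 2, where 3 had an unadjusted p under 0.05. Rab38, a GTPase that brings pigment enzymes to melanosomes, had 6.05, 6.42 and 19.6 CPM in Atm-/- and 1.55, 2.58 and 1.07 CPM in Atm+/+ cells at passage 8. The ranges were apart, as for 16.8% of all genes in this direction, and the difference of 2.61 passed (SE 0.50, edgeR with Benjamini-Hochberg adjustment, adjusted p = 0.00661). It was 1.86 without Atm-/- passage 8 replicate 3, the library with the highest value. Dtnbp1 (dysbindin), part of the BLOC-1 complex that sorts melanosome cargo, averaged 179 ± 15.7 CPM in Atm-/- and 107 ± 7.01 CPM in Atm+/+ cells (SD, n = 3 each) and was higher by 0.74 (SE 0.13, edgeR with Benjamini-Hochberg adjustment, adjusted p = 0.00509). Tpcn2, a lysosomal and melanosomal cation channel, was lower, at 25.8 ± 7.14 CPM in Atm-/- and 47.5 ± 3.75 CPM in Atm+/+ cells (SD, n = 3 each), or -0.88 on the log2 scale (edgeR with Benjamini-Hochberg adjustment, adjusted p = 0.00802). Rab27a, which tethers mature melanosomes to the transport motor, did not pass at passage 8, with 2.85, 3.95 and 1.14 CPM in Atm-/- and 8.55, 9.87 and 9.69 CPM in Atm+/+ cells (edgeR with Benjamini-Hochberg adjustment, adjusted p = 0.0660). With irradiation 4 of the 22 rose and 4 fell, 36.4% against 27.5% of all genes, and the 3 with the lowest p fell, Tpcn2 by 0.90, Dtnbp1 by 0.62 and the BLOC-1 subunit Bloc1s1 by 0.78. Rab27a rose with passage in Atm+/+ cells, by 2.57, and with irradiation, by 2.10 (edgeR with Benjamini-Hochberg adjustment, adjusted p = 0.00783 and 0.0188).

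No MiT/TFE factor passed the threshold between the genotypes, which does not show that their levels were equal. Of the 5 tested genes that did not choose the set, the 4 factors and Pmel, none passed at passage 8 or at passage 2, against 9.32% and 0.969% of all genes. At an unadjusted p under 0.05 there were none at passage 8 and 1 at passage 2, which was Tfeb, and DESeq2 called none at either. With passage, 3 of the 7 tested members passed in Atm+/+ cells (Mlana, Tfec and Tfeb) against 23.3% of all genes (9.8% higher and 13.5% lower), and in Atm-/- cells 1 of the 5 that did not choose the set did (Tfec), against 13% of all genes (4.76% higher and 8.25% lower). With irradiation, 2 of 7 passed (Gpnmb and Tfeb) against 27.5% of all genes (11% higher and 16.5% lower), and for the difference of the passage effects none of the 5 passed in edgeR, against 4.43% (2.46% higher and 1.97% lower), with 0 at an unadjusted p under 0.05 and 0 called by DESeq2. With 13 libraries the counts were 5 of 7 for passage in Atm+/+ cells, 2 of 5 for passage in Atm-/- cells and 3 of 7 for irradiation, beside 40.1%, 27.2% and 46.3% of all genes.

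**Figure D3:**
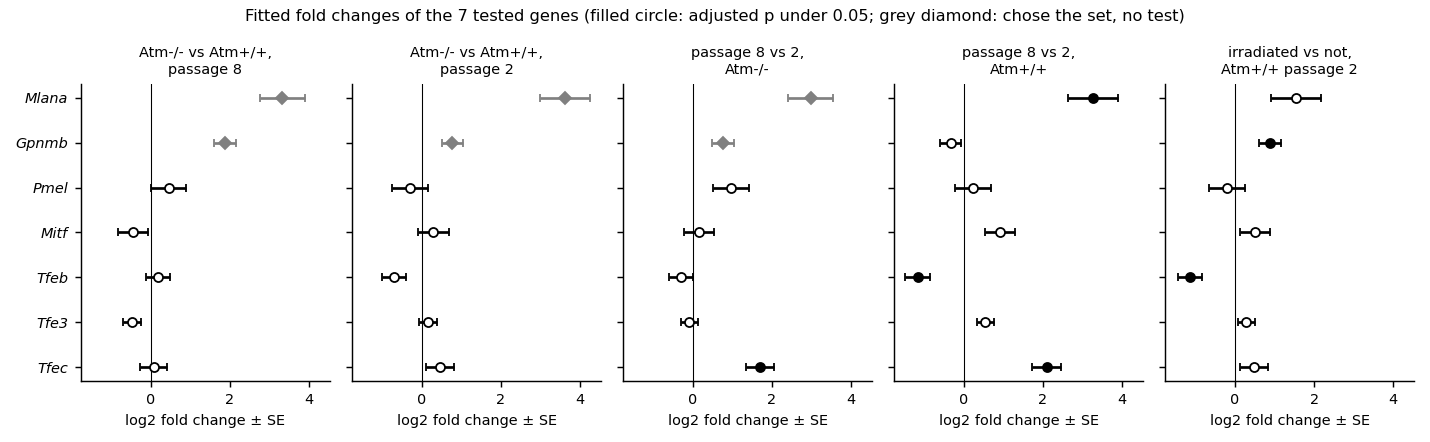
Fitted log2 fold changes with their SE of the 7 tested genes in 5 comparisons, with filled circles for an adjusted p under 0.05 in edgeR and grey diamonds for Mlana and Gpnmb in the comparisons with Atm-/- libraries, which chose the set and have no test. Mlana lay at 2.98 to 3.61 for genotype and passage, Tfec was filled only for the passage comparisons, and Tfeb lay at -1.15 for irradiation and -1.17 for passage in Atm+/+ cells.

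Tfeb, the main activator of lysosomal genes, was highest in unirradiated Atm+/+ cells at passage 2. At passage 8 Tfeb had 7.65, 10.2 and 21.5 CPM without Atm and 12.6, 11.8 and 10.02 CPM with it. At passage 2 it had 15.1, 15.8 and 16.8 CPM without Atm, 13.3, 10.5 and 11.35 CPM in irradiated cells with Atm and 24.02, 21.1 and 32.6 CPM in unirradiated ones. No library of another group reached the Atm+/+ passage 2 range except Atm-/- passage 8 replicate 3, one of the libraries that stood apart. Tfeb fell with passage in Atm+/+ cells, by 1.17 on the log2 scale (SE 0.31, edgeR with Benjamini-Hochberg adjustment, adjusted p = 0.0147). All irradiated libraries were below all unirradiated ones, as for 27.7% of all genes. Tfeb fell with irradiation by 1.15 (SE 0.30, edgeR with Benjamini-Hochberg adjustment, adjusted p = 0.0149), in a comparison with the same Atm+/+ passage 2 libraries. With 13 libraries the changes were -0.95 and -0.90 and passed (edgeR with Benjamini-Hochberg adjustment, adjusted p = 0.000208 and 0.000364). In Atm-/- cells the passage difference was -0.30 and did not pass (SE 0.30, edgeR with Benjamini-Hochberg adjustment, adjusted p = 0.568), and in the 13 libraries it was -0.81 and passed (adjusted p = 0.00153). The difference between genotypes at passage 2 was -0.70, with every Atm-/- library below every Atm+/+ library, and did not pass (SE 0.30, edgeR with Benjamini-Hochberg adjustment, adjusted p = 0.287). Groups that do not overlap in this direction were found for 12.1% of all genes. At passage 8 it was 0.18 with all libraries and -0.35 in the 13, neither passing (edgeR with Benjamini-Hochberg adjustment, adjusted p = 0.724 and 0.115).

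Tfec followed passage and not genotype. At passage 8 it had 18.4, 18.2 and 15.9 CPM without Atm and 15.3, 19.8 and 14.9 CPM with it. In passage 2 cells the values were 7.17, 5.01 and 4.04 CPM without Atm, 5.27, 4.04 and 7.15 CPM in irradiated cells with Atm and 4.78, 5.12 and 1.74 CPM in unirradiated ones. Every passage 8 library was above every passage 2 library. Between the passages of a single genotype, 3 libraries against 3, a gap in this direction was found for 14.5% of all genes in Atm-/- and 24.9% in Atm+/+ cells. The share over all groups together was not counted. The rise was 4.25-fold in Atm+/+ cells (log2 2.09, SE 0.36, edgeR with Benjamini-Hochberg adjustment, adjusted p = 0.0011) and 3.24-fold in Atm-/- cells (log2 1.69, SE 0.36, adjusted p = 0.00578). In the 13 libraries these were 1.77 and 1.78 and passed (edgeR with Benjamini-Hochberg adjustment, adjusted p = 0.000138 and 0.000112). At passage 8 the genotypes differed by 0.07 (SE 0.35) and at passage 2 by 0.47 (SE 0.35), neither passing (edgeR with Benjamini-Hochberg adjustment, adjusted p = 0.909 and 0.496). Irradiation gave 0.49 and did not pass (SE 0.35, edgeR with Benjamini-Hochberg adjustment, adjusted p = 0.316). Beside the rise of Tfec with passage, 19 of 21 macrophage markers fell in Atm+/+ cells and 20 of 21 in Atm-/- cells, against 13.5% and 8.25% of all genes, and none rose. The 8 osteoclast markers summed to 154 to 312 CPM at passage 8 against 130 to 171 CPM at passage 2 in Atm-/- cells, and to 129 to 138 CPM against 266 to 336 CPM in Atm+/+ cells. Of the 5 that could be tested, 1 rose and 2 fell in each genotype. The part of these cell types in the Tfec values was not tested. Over the 15 libraries, Tfec had a Pearson correlation of 0.80 with Mlana and 0.20 with Gpnmb in log2 CPM.

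Mitf and Tfe3 did not pass in any comparison of all 15 libraries. Mitf, of which melanocytes use a form of their own that gene counts cannot separate, had 4.68, 7.61 and 2.54 CPM in Atm-/- and 6.11, 8.14 and 6.29 CPM in Atm+/+ cells at passage 8. At passage 2 it had 5.15, 3.99 and 4.31 CPM in Atm-/-, 5.06, 5.22 and 5.28 CPM in irradiated and 4.28, 4.74 and 1.89 CPM in Atm+/+ cells. The lowest values were those of the 2 libraries that stood apart. In Atm+/+ cells the passages did not overlap, as for 24.9% of all genes in this direction, and the difference of 0.90 did not pass (SE 0.39, edgeR with Benjamini-Hochberg adjustment, adjusted p = 0.105). In the 13 libraries it was 0.62 and passed (SE 0.21, edgeR with Benjamini-Hochberg adjustment, adjusted p = 0.0332). Tfe3 (chromosome X) had 58.1, 67.2 and 29.02 CPM in Atm-/- and 71.2, 69.9 and 73.5 CPM in Atm+/+ cells at passage 8. At passage 2 it had 58.2, 55.6 and 50.7 CPM in Atm-/-, 61.8, 58.7 and 59.8 CPM in irradiated and 44.9, 56.3 and 46.3 CPM in Atm+/+ cells. Its genotype difference at passage 8 was -0.47 with all libraries and -0.17 in the 13, neither passing (edgeR with Benjamini-Hochberg adjustment, adjusted p = 0.182 and 0.228). With 13 libraries Tfe3 was higher with passage in Atm+/+ cells, by 0.52, and with irradiation, by 0.29 (edgeR with Benjamini-Hochberg adjustment, adjusted p = 0.00135 and 0.0310), while with all 15 these were 0.54 and 0.29 and did not pass (adjusted p = 0.0956 and 0.347). For Tfe3 too the passages did not overlap in Atm+/+ cells, as for 24.9% of all genes in this direction.

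Per length, Tfe3 and Tfeb made up most of the family in every group. The 4 factors summed to 27.2 ± 7.49 TPM in Atm-/- passage 8, 37.6 ± 1.24 TPM in Atm+/+ passage 8, 30.6 ± 1.11 TPM in Atm-/- passage 2, 33.0 ± 1.18 TPM in irradiated Atm+/+ and 29.9 ± 5.62 TPM in Atm+/+ passage 2 cells (SD, n = 3 each). Within this sum, the share of Tfeb averaged 28.5%, 21.7%, 37.9%, 29.03% and 53.1% in the same order of groups. In Atm-/- passage 8 cells this share ran from 17.3% to 48.4% (SD 17.2%), highest in replicate 3, one of the libraries that stood apart. In Atm+/+ passage 8 cells it ran from 19.8% to 24.1%, so the order of these 2 groups rests on that library. The share of Tfec averaged 26.0% and 21.8% in Atm-/- and Atm+/+ cells at passage 8, against 8.82% in Atm-/-, 9.39% in irradiated and 5.64% in Atm+/+ cells at passage 2. Mitf was the least abundant of the 4 in every group, at 3.66% to 6.21% of the sum. The mean TPM of Mlana exceeded the summed TPM of the 4 factors only in Atm-/- passage 8 cells.

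**Figure D4:**
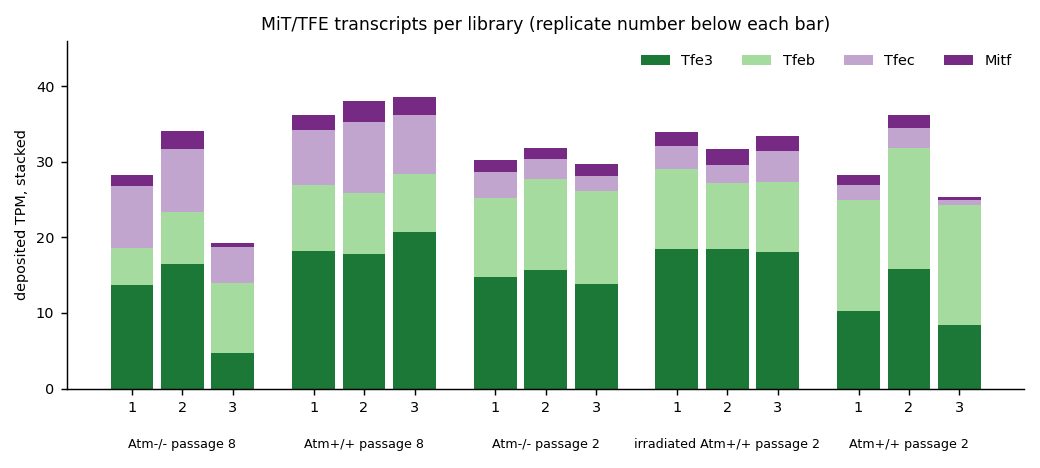
Deposited TPM of Tfe3, Tfeb, Tfec and Mitf stacked for each library, with the replicate number under each bar. The Tfec part is widest in the passage 8 libraries, at 4.75 to 9.42 TPM, and the Tfeb part in the Atm+/+ passage 2 libraries, at 14.73 to 16.01 TPM.

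Lysosomal genes are the best known targets of Tfeb and Tfe3. A list of 49 of them with CLEAR elements, the E-box form that these factors bind, was chosen from general knowledge with earlier results of these data known. All 49 were tested. Without Atm at passage 8, 15 were higher, none was lower and 34 did not pass, which is 30.6% against 9.32% of all genes, and the median was 0.35 against -0.08 for all genes. In the 13 libraries 30 were higher and 3 lower, beside 25% of all genes. Without 1 library the number higher ran between 7 and 20, while the share of all genes higher ran between 1.41% and 10.1%. With only the compared groups in the fit it was 0 of 48, but that fit called just 0.111% of all genes. On log2(TPM + 1) the median of all genes shifted to -0.29 and that of the list to -0.01. There 3 were higher and 1 lower, beside 2.12% and 5.8% of all genes. At passage 2 none passed in edgeR, where 15 had an unadjusted p under 0.05. DESeq2 called 2 higher, beside 2.09% of all genes. The fibroblast marker list, as the other side of the same comparison, had 9 of 12 lower and 2 higher at passage 8.

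Several proton pump genes were among those higher at passage 8. Atp6v0d1, a subunit of the membrane part of the lysosomal proton pump, had 256, 186 and 217 CPM in Atm-/- and 119, 125 and 115 CPM in Atm+/+ cells. The genotypes did not overlap, as for 16.8% of all genes in this direction, and the difference of 0.88 passed (SE 0.13, edgeR with Benjamini-Hochberg adjustment, adjusted p = 0.00191). Atp6ap1, an accessory subunit of the same pump, was higher by 0.70, as were the chloride transporter Clcn7, also by 0.70, and the pump subunits Atp6v1b2, Atp6v1c1 and Atp6v1d, by 0.66 to 0.88. Others that passed were Cd63, Ctsz, Gla, Grn, Mcoln1, Npc2 and Sqstm1, at 0.62 to 0.99. Lamp2, a main lysosomal membrane protein, did not pass, at -0.20.

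With passage in Atm-/- cells 16 of the 49 rose and 1 fell, 34.7% against 13% of all genes, with a median of 0.28 against -0.08 for all genes, led by Atp6v1c1 at 0.73 and Clcn7 at 0.75, with Atp6v0d2 as the gene that fell. In Atm+/+ cells 6 rose and 4 fell, 20.4% against 23.3% of all genes, with Asah1 (acid ceramidase) at 1.55 and Lamp2 at 0.65 among those that rose. The difference of the passage effects passed for 3 genes, 6.12% against 4.43% of all genes, all more positive in Atm-/- cells. These were Atp6v0d1 at 0.73 and the cathepsins Ctsd at 2.48 and Ctsz at 1.5 (edgeR with Benjamini-Hochberg adjustment, adjusted p = 0.0441, 0.0462 and 0.0474). At passage 8 Ctsd had 2471, 2356 and 6768 CPM without Atm and 1642, 1650 and 1307 CPM with it. In passage 2 cells it had 2404, 1813 and 1628 CPM without Atm and 3503, 1993 and 7426 CPM with it. Its highest values were those of the 2 libraries that stood apart. With irradiation 11 rose and 3 fell, 28.6% against 27.5% of all genes. With both directions together, the shares for passage in Atm+/+ cells, for irradiation and for the difference were near those of all genes. By direction they differed more. With irradiation 22.4% rose and 6.12% fell, against 11% and 16.5% of all genes. For the difference 6.12% were more positive and 0% more negative, against 2.46% and 1.97%. With passage in Atm+/+ cells 12.2% rose and 8.16% fell, against 9.8% and 13.5%. Lowest in p with irradiation were Glb1, the senescence-associated beta-galactosidase, which fell by 0.70, and Atp6v1c1 and the cholesterol exporter Npc1, which rose by 0.58 and 1.13 (edgeR with Benjamini-Hochberg adjustment, adjusted p = 0.00191, 0.00354 and 0.01). With 13 libraries 30 rose and 1 fell with passage in Atm-/- cells, 16 and 3 in Atm+/+ cells, and 21 and 3 with irradiation, beside 27.2%, 40.1% and 46.3% of all genes. The difference passed for 13 in the positive and 2 in the negative direction, beside 13.8%.

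**Figure D5:**
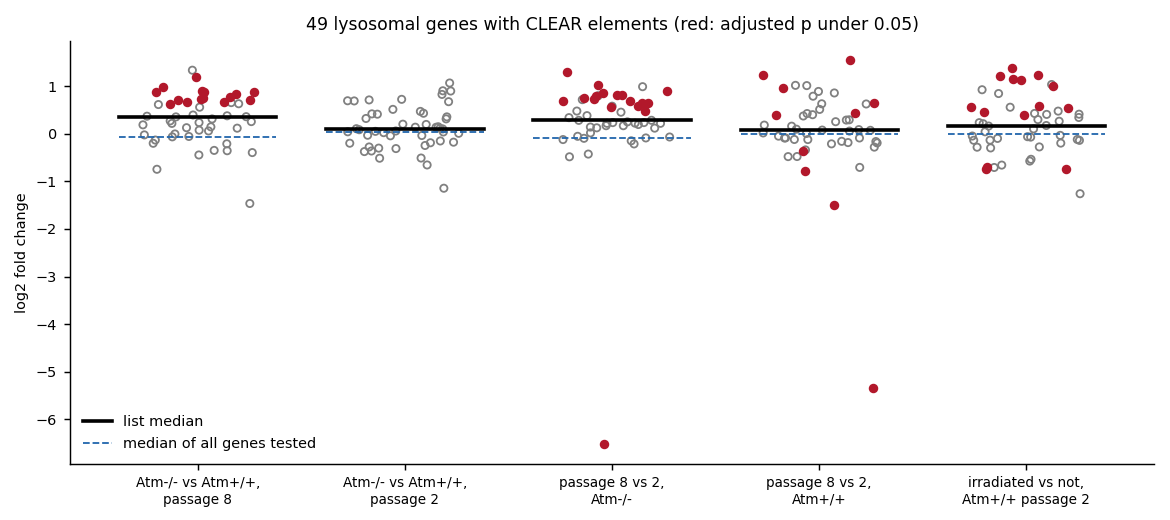
Log2 fold change of the 49 lysosomal genes in 5 comparisons, each point a gene (red, adjusted p under 0.05 in edgeR), with the list median (black) and the median of all genes tested (blue, dashed). At passage 8 the red points between genotypes are all above 0, and the lowest points in the passage comparisons are Atp6v0d2.

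The nutrient-sensing genes that hold the MiT/TFE factors in the cytoplasm or release them numbered 24, all tested. Without Atm at passage 8, 5 were higher and none lower, 20.8% against 9.32% of all genes. Rragd, a GTPase that brings these factors to mTORC1 and is itself a known target of theirs, had 24.1, 14.1 and 16.3 CPM in Atm-/- and 4.05, 4.003 and 3.95 CPM in Atm+/+ cells. All Atm-/- libraries were above all Atm+/+ libraries, as for 16.8% of all genes, and the difference was 2.18 (SE 0.42, edgeR with Benjamini-Hochberg adjustment, adjusted p = 0.00702). Fnip2, a partner of the folliculin protein that controls Rragd, had 18.7, 14.1 and 23.2 CPM in Atm-/- and 5.74, 6.62 and 6.48 CPM in Atm+/+ cells and was higher by 1.57 (SE 0.27, edgeR with Benjamini-Hochberg adjustment, adjusted p = 0.0043). Ppp3ca, the catalytic subunit of calcineurin that dephosphorylates Tfeb, was higher by 0.72, and the scaffold subunits Lamtor3 and Lamtor4 by 0.48 and 1.05. Lamtor4 had 88.5, 86.7 and 191 CPM in Atm-/- and 61.6, 63.1 and 51.7 CPM in Atm+/+ cells, with its highest value in replicate 3, which stood apart. At passage 2 none of the 24 passed, where 4 had an unadjusted p under 0.05 and DESeq2 called none. With passage 5 rose in Atm-/- cells, 20.8% against 13% of all genes, among them Fnip2 at 1.57 and Rragd at 2.21. In Atm+/+ cells 3 rose and 1 fell, 16.7% against 23.3%. With irradiation 4 rose and 4 fell, 33.3% against 27.5%, and Rragd was among those that rose, at 1.25 (edgeR with Benjamini-Hochberg adjustment, adjusted p = 0.04). At passage 8, 9 were higher and none lower without Atm in the 13 libraries, beside 25% of all genes. With only the compared groups in the fit it was 0 of 23, but that fit called just 0.111% of all genes. Leaving out 1 library at a time gave 2 to 9 higher. The fewest came with Atm+/+ passage 8 replicate 3 dropped and the most with Atm+/+ passage 2 replicate 3 dropped. The share of all genes higher was 1.41% and 10.1% in these fits.

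Genes known as partners of Gpnmb or as proteases that shed it numbered 10. Without Atm at passage 8, 4 of them were lower, none was higher and 6 did not pass, 40% against 9.32% of all genes, and a median of -0.44 against -0.08 for all genes. Itga5, the alpha chain of the fibronectin receptor, had 408, 473 and 409 CPM in Atm-/- and 980, 835 and 910 CPM in Atm+/+ cells. The groups were apart, as for 23% of all genes in this direction, and Itga5 fell by 1.08 on the log2 scale (SE 0.14, edgeR with Benjamini-Hochberg adjustment, adjusted p = 0.00085). The others were the growth factor receptor Egfr at -0.82, the proteoglycan Sdc4 at -1.31 and the integrin chain Itgb1 at -0.61. In Atm+/+ cells 5 of the 10 rose with passage and 6 with irradiation, against 9.8% and 11% of all genes, led by Itga5 and the hyaluronan receptor Cd44, while in Atm-/- cells Cd44 was the 1 that rose with passage, by 0.75. Among 18 other inputs and targets of Mitf, 13 could be tested. Without Atm at passage 8, 2 were higher and 1 was lower, 23.1% against 9.32% of all genes. The list median was -0.19 against -0.08 for all genes, and 5 of the 13 values were positive. The bone-resorbing protease Ctsk was higher, at 298, 218 and 137 CPM in Atm-/- against 121, 123.1 and 116 CPM in Atm+/+ cells (0.86, SE 0.21, edgeR with Benjamini-Hochberg adjustment, adjusted p = 0.0236). Hif1a was lower by 1.16 and Sox10, at the levels given above, also passed. Ctsk further rose with passage, by 1.28 in Atm-/- and 1.05 in Atm+/+ cells, and with irradiation, by 1.15 (edgeR with Benjamini-Hochberg adjustment, adjusted p = 0.00113, 0.00314 and 0.00219). Of the 13, 3 rose and 2 fell with passage in Atm-/- cells, 38.5% against 13% of all genes. In Atm+/+ cells 4 rose and 3 fell with passage, 53.8% against 23.3%, and 3 rose and 1 fell with irradiation, 30.8% against 27.5%.

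Genes with a like pattern were ranked by Pearson correlation of log2 CPM over the 15 libraries, among 10298 genes for Mlana and 10297 for Gpnmb with a mean of at least 2 log2 CPM. For Mlana they were Lrpprc (0.96), Bid (0.94), Cpa6 (0.94), Cdv3 (0.93) and Slc25a4 (0.92), and for Gpnmb Mcoln1 (0.94), Plin2 (0.94), Ass1 (0.92), Hist1h4i (0.91) and Shisa5 (0.90). The libraries share groups and depth, so these values are a description. Cpa6, a secreted carboxypeptidase, averaged 20.9, 7.16, 6.26, 2.57 and 1.02 CPM in Atm-/- passage 8, Atm+/+ passage 8, Atm-/- passage 2, irradiated and Atm+/+ passage 2 cells, the same order of groups as Mlana apart from the overlapping middle pair. Ass1, the argininosuccinate synthase of the urea cycle, averaged 35.6, 8.40, 16.5, 24.1 and 8.40 CPM in these groups. On the chromosome, 9930021J03Rik lies 5.77 kb from Mlana and was at 0.59 between genotypes at passage 2 and -0.89 at passage 8, neither passing (edgeR with Benjamini-Hochberg adjustment, adjusted p = 0.379 and 0.101). With passage in Atm+/+ cells and with irradiation 9930021J03Rik rose, by 1.26 and 1.21 (edgeR with Benjamini-Hochberg adjustment, adjusted p = 0.0167 and 0.0178). Malsu1, a mitochondrial ribosome assembly factor 2.87 kb from Gpnmb, was at -0.47 and 0.66, and Igf2bp3, 14.3 kb away, at 1.25 and 0.73, with none passing (edgeR with Benjamini-Hochberg adjustment, adjusted p of 0.113 to 0.361). Igf2bp3 rose with passage, by 1.69 in Atm-/- and 2.21 in Atm+/+ cells, and Malsu1 fell with irradiation by 0.91 (edgeR with Benjamini-Hochberg adjustment, adjusted p = 0.0315, 0.00692 and 0.0196). Ermp1, 49.4 kb from Mlana, was at -0.19 and -0.41 between genotypes and did not pass (edgeR with Benjamini-Hochberg adjustment, adjusted p = 0.752 and 0.379), while with passage it fell by 1.12 in Atm-/- and 0.90 in Atm+/+ cells (adjusted p = 0.0236 and 0.0429).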

How the data were processed

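Total RNA of 15 fibroblast cultures was sequenced after TruSeq preparation, per the labels. The authors deposited whole read counts per gene (featureCounts, SAMtools 1.3.1 and mm10, per the submitters' processing notes) and TPM values. For the aligner, annotation and strand setting, nothing is given in the sources used here. Deposited TPM matched the counts divided by length within 2% for 100.0% of 201525 values of at least 50 reads. Of 48440 gene identifiers, 48058 were paired with a symbol through GENCODE vM21.

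Counts were tested in R 4.3.3 with edgeR 4.0.16 (quasi-likelihood F test, robust, TMM scaling, filterByExpr), all 15 libraries in 1 fit of group means, Benjamini-Hochberg adjustment over 18167 genes and a threshold of 0.05, with 6 contrasts. CPM values use TMM library sizes. Alternatives were DESeq2 1.42.0, limma 3.58.1 on log2(TPM + 1) and log2(TPM + 0.1), DESeq2 size factors, other filters, only the groups compared, the replicate number as a block, 13 libraries and each library left out. On simulated data for the genotype comparison at passage 8 (17852 genes), 6% of 1.5-fold, 24% of 2-fold and 80% of 4-fold changes were recovered. Of the calls, 3.92% were false. Replicates were 3 strains of each genotype, so libraries of 1 genotype in different groups may come from the same strains. The sample titles repeat the numbers 1 to 3 in each group and do not say whether a number marks the same strain. The main fit treated all libraries as independent.

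The members, lists and alternatives were chosen with earlier results of these data known. Named genes were all 10 members, up to 3 genes of lowest p per list and contrast, the 5 genes most like Mlana and Gpnmb, and tested neighbours within 50 kb. Other genes of the lysosomal and nutrient lists were named after their values were seen. Intervals and floors cover counting error only. Some genes of the lysosomal list are not reported here by name.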

Additional observations from a re-analysis of the deposited data

Results flagged for a closer look

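The change from passage 2 to passage 8 differed between the genotypes for 11 named genes of the related lists, by the interaction term in edgeR with Benjamini-Hochberg adjustment. None of the 5 tested members other than Mlana and Gpnmb was among them. Genes were named for a low p in a list and comparison, this one included, so the count partly follows from the choice. Of the tested genes, 6.12% passed in the lysosomal list, 12.5% in the nutrient and 4.55% in the melanosome list. In the list of other Mitf inputs and targets 7.69% passed and among the Gpnmb partners and proteases 40%, against 4.43% of all genes. Values are the passage effect in Atm-/- cells minus that in Atm+/+ cells on the log2 scale.

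More positive in Atm-/- cells were Fnip2 at 1.86 (SE 0.38), Lamtor4 at 1.71 (SE 0.43), Ppp3ca at 0.867 (SE 0.21), Atp6v0d1 at 0.731 (SE 0.18), Ctsd at 2.48 (SE 0.63), Ctsz at 1.5 (SE 0.39) and Dtnbp1 at 0.711 (SE 0.19). More negative were Itga5 at -1.57 (SE 0.20), Hif1a at -1.61 (SE 0.26), Itgb1 at -1.04 (SE 0.24) and Egfr at -0.959 (SE 0.21). The adjusted p-values ran between 0.00291 for Itga5 and 0.0499 for Dtnbp1 in edgeR. For Hif1a, the oxygen-sensing factor, the levels behind the value were 111 ± 27.3 CPM in Atm-/- and 248 ± 15.6 CPM in Atm+/+ cells at passage 8, and 120 ± 20.4 CPM in Atm-/- and 87.9 ± 11.5 CPM in Atm+/+ cells at passage 2 (SD, n = 3 each). Itga5 and Hif1a passed in all 25 alternatives, while Egfr did not pass in 9, Fnip2 in 10, Itgb1 in 14, Lamtor4 in 15, Ctsz in 16, Ppp3ca and Atp6v0d1 in 17, Ctsd in 18 and Dtnbp1 in 20. Without Atm-/- passage 8 replicate 3, one of the libraries that stood apart, Lamtor4 was at 1.21 and Ctsd at 1.78.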

How the results depend on the processing

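The number of members called changed under several settings. Leaving out 1 library gave 0 to 1 for the genotypes at passage 2 (1 without Atm-/- passage 8 replicate 3, Tfeb) and 0 to 1 for the genotypes at passage 8 (1 without Atm-/- passage 8 replicate 2, Tfe3). In the fits that called Tfeb and Tfe3, 4.46% and 17.7% of all genes were called, against 0.969% and 9.32% in the main fit. Leaving out 1 library gave 2 to 5 for passage in Atm+/+ cells, beside 11.7% to 40.3% of all genes. For irradiation it gave 0 to 3 (0 without Atm+/+ passage 2 replicate 3 or irradiated replicate 3), beside 14.4% to 44.4%. The 13 libraries gave 5, 4 and 1 for passage in Atm+/+ cells, passage in Atm-/- cells and their difference. DESeq2 gave 1 for the difference, and the main counts were 3, 2 and 0 in the same order. For passage in Atm-/- cells and the difference, these counts run over Mlana and Gpnmb too, which chose the set. They are a description there and no test. Leaving these 2 genes out, passage in Atm-/- cells gave 2 of 5 in the 13 libraries and 1 of 5 in the main fit. Of 850 member values under the alternatives, leaving out those of Mlana and Gpnmb that chose the set, 819 stayed on their side of the threshold, 19 passed anew, 12 no longer passed, and none that passed changed sign. No other count over all members is given for passage in Atm-/- cells or for the difference of the passage effects, because Mlana and Gpnmb are not tested there. Mlana in Atm+/+ passage missed the threshold when the fit held no other groups (adjusted p = 0.0510 in edgeR), and Tfec in Atm-/- passage did not pass in 2 limma fits on TPM. Same-numbered libraries deviated together at correlations of -0.20 to 0.22. These rest on groups of 3 that include the 2 libraries that stood apart, so they cannot show whether the numbers mark shared strains. The fit with the replicate number as a block gave 0, 0, 3 and 2 members called, as without it. This order is genotypes at passage 2, genotypes at passage 8, passage in Atm+/+ cells and irradiation. The cause of these changes was not tested. Depth limits Mlana at Atm+/+ passage 2, with 0 to 16 reads, and the pigment enzymes. On log2(TPM + 1) the median of all genes lay between -0.50 for the difference of the passage effects and 0.32 for irradiation, against -0.14 and -0.01 on counts, so values on it are read against that median.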
